A study of Homo sapiens with 32 samples.

Results

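The rows studied here are the precursor miRNAs of the miR-106b-25 cluster, mir-106b, mir-93 and mir-25, and of the miR-106a-363 cluster, mir-106a, mir-18b, mir-20b and mir-363. They were chosen by name, as the rows of the deposited count table that carry these 7 names, out of 1513 rows that name a miRNA. The first cluster lies in an intron of MCM7, a subunit of the helicase that unwinds DNA at replication forks, and the second on the X chromosome. The RNA was from 293T cells, an established line of human embryonic kidney origin that is much used for transfection. The study asked how mature miRNA levels respond when DGCR8 lacks the segment reported to bind ERH, when ERH is knocked down, and when both apply.

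The samples formed 4 groups. Wild-type clones 52, 55, 57 and 67 (genotype WT) and clones 30, 34, 42 and 43 (genotype DGCR8 delta103-126Q, the binding-site deletion made by prime editing) were each transfected with 4 vectors, control shRNA 1, control shRNA 2, shERH 1 and shERH 2. All groups, the controls included, therefore carried an shRNA vector, went through puromycin selection and were sorted on day 5 for the vector's fluorescent marker. This gave 32 libraries, with 1 library per clone and vector. Each clone is a line grown from 1 cell, transfection was transient, and the labels do not say whether the wild-type clones had been exposed to editing reagents. ERH mRNA and the edited locus were not analysed here, so the knockdown and the deletion were not checked against the targeted genes.

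A miRNA cluster is a group of hairpins in 1 primary transcript. The Microprocessor, formed by the nuclease DROSHA with DGCR8, cuts each hairpin out in the nucleus, and DICER1 then releases the mature strands, which guide Argonaute proteins to matching mRNAs mainly through the seed near the 5′ end. ERH is a small nuclear protein that binds DGCR8 and is known to help the Microprocessor cut some weak hairpins that lie beside a good one. The miR-106b-25 and miR-106a-363 clusters are paralogs of the miR-17-92 cluster of MIR17HG, and the miRNAs of this family are known as promoters of cell-cycle entry and survival.

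The strand that usually guides Argonaute is shown for each row so that their seeds (bases 2 to 8, in capitals) can be compared. Sequences are from RefSeq, on GRCh38.p14, 5′ to 3′. The first 4 carry the seed AAAGUGC, which they share with miR-17-5p and miR-20a-5p.
miR-106b-5p: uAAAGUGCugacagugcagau
miR-93-5p: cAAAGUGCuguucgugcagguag
miR-106a-5p: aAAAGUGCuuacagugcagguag
miR-20b-5p: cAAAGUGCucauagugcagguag
miR-18b-5p: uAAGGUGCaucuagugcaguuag
miR-25-3p: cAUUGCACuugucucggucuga
miR-363-3p: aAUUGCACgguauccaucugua
miR-18b-5p has the seed AAGGUGC of miR-18a-5p, and miR-25-3p and miR-363-3p have the seed AUUGCAC of miR-92a-3p. Both clusters thus carry the seeds AAAGUGC and AUUGCAC, with miR-25-3p and miR-363-3p from the last hairpin of each cluster, and the X cluster carries AAGGUGC as well.

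The X-linked strands miR-106a-5p, miR-18b-5p and miR-20b-5p are close copies of strands from MIR17HG on chromosome 13, which are shown because reads of the X-linked rows have to be told apart from them.
miR-17-5p: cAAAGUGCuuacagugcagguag
miR-20a-5p: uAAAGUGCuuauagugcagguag
miR-18a-5p: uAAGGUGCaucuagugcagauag
miR-92a-3p: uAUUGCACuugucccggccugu
Positions are counted from 1 at the 5′ end, with the MIR17HG base first. miR-106a-5p differs from miR-17-5p by C1A alone over 23 bases, and miR-18b-5p differs from miR-18a-5p by A20U alone. miR-20b-5p differs from miR-20a-5p by U1C and U10C and from miR-17-5p by U10C and C12U. miR-363-3p is no such copy and differs from miR-92a-3p, with which it shares the seed, at 12 of 22 bases. In the MCM7 cluster, miR-25-3p differs from miR-92a-3p at 4 of 22 bases and miR-93-5p from miR-17-5p at 4 of 23.

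In the genome, MIR106B lies at chr7:100093993-100094074 and MIR25 at chr7:100093560-100093643, both on the minus strand, with miR-93-5p at chr7:100093815-100093837 between them. GENCODE release 29 places the MIR106B and MIR25 hairpins inside MCM7 without overlap with an exon. MIR106A lies at chrX:134170198-134170278, MIR18B at chrX:134170041-134170111 and MIR363 at chrX:134169378-134169452, all on the minus strand and within exons of the long noncoding RNA AC002407.1, with miR-20b-5p at chrX:134169850-134169872. The build behind the counts is not given in the sources used here, so these positions describe the loci and not the mapping. The MIR25 and MIR106B hairpins are shown with the bases of both mature strands in capitals, because a row of the table pools the reads of both strands.
MIR106B: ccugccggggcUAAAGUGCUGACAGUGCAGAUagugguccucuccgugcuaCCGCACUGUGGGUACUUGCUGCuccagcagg
MIR25: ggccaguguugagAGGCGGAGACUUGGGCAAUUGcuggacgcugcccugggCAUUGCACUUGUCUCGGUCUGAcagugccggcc
Their GC content was 61.0% and 63.1%, against 41.3% to 46.5% in MIR363, MIR106A and MIR18B.

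The clusters differed in level by orders of magnitude. Libraries held 1318923 to 6222790 miRNA counts (median 2299476.5), and mir-93 and mir-25 ranked 5th and 7th among all rows by mean level. Together the 3 MCM7 rows took 7.53% to 13.1% of a library, with a median of 9.39%, while the 4 X-linked rows took 0.00415% to 0.0110%. Over the 32 libraries mir-93 had 64485 to 313842 counts (median 111468), mir-25 had 51196 to 263171 (median 96337.5) and mir-106b had 2001 to 8424 (median 3631). The X-linked rows had 41 to 353 counts for mir-106a (median 97.5), 20 to 158 for mir-20b (median 38) and 5 to 44 for mir-18b (median 14).

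**Figure D1:**
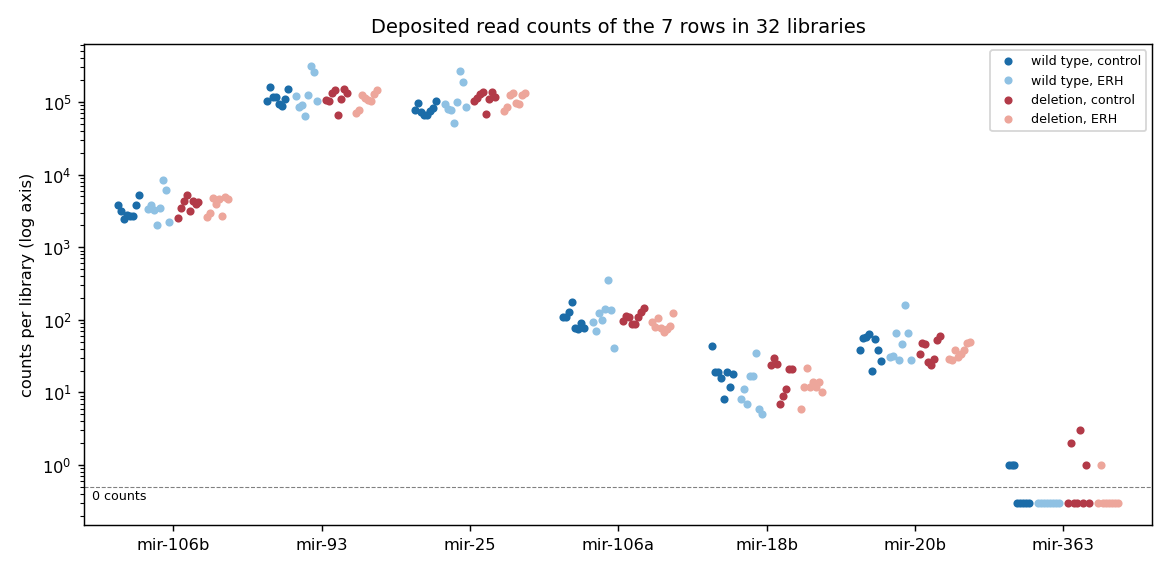
Deposited read counts of the 7 rows (x axis) in each of the 32 libraries, on a log10 y axis with libraries at 0 drawn under the dashed line and coloured by genotype and shRNA arm. The 3 MCM7 rows lie at 2001 counts or more, mir-106a, mir-18b and mir-20b between 5 and 353, and mir-363 at 3 or fewer.

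Of the 7 rows, mir-363 was the one at the detection limit. It had 10 counts in all, from 7 of 32 libraries, and was at 0 in the other 25. The 8 deletion libraries with control shRNAs held 6 of these counts, the 8 wild-type libraries with control shRNAs held 3, and the deletion and wild-type libraries with ERH shRNAs held 1 and 0. A count of 0 allows up to 3 counts. That is 0.482 CPM (counts scaled to library size) in the deepest library and 2.27 CPM in the shallowest. Such limits hold for single libraries, and differences of mir-363 between groups were not tested. These limits cover counting error only. mir-363 passed the filter on low counts in none of the comparisons, and the statements on tests below are about the other 6 rows.

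Set against their near-copies in MIR17HG, mir-106a, mir-18b and mir-20b were a small fraction. mir-106a reached 0.295% to 0.813% of the mir-17 count of the same library (median 0.513%), mir-18b 0.0346% to 0.335% of mir-18a (median 0.136%) and mir-20b 0.0237% to 0.0668% of mir-20a (median 0.0331%). Against mir-17, from which its main strand is equally distant, mir-20b reached 0.130% to 0.299% (median 0.215%). Across the 16 sums of the clones' control and ERH libraries, log2 CPM of mir-106a and mir-17 had r = 0.88, mir-20b and mir-20a r = 0.95, mir-20b and mir-17 r = 0.76 and mir-18b and mir-18a r = 0.59. The rows compared share libraries, clones and scaling. How the authors assigned reads that fit both copies, or differ from one of them by a sequencing error, is not given in the sources used here. The X-linked levels are therefore uncertain, and the part of misassigned MIR17HG reads in them was not tested.

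The levels below are CPM scaled by the trimmed mean of M-values (TMM) computed on sums of the 2 libraries that each clone has in an arm, so that the clone is the replicate. They are counts per row and not per length, since a read spans a whole mature strand, and the efficiency with which each sequence was captured was not measured. In wild-type clones with control shRNAs, mean levels in descending order were 67015 ± 3746 (SD, n = 4) for mir-93, 46592 ± 7327 for mir-25 and 1918 ± 485 for mir-106b, followed by 60.0 ± 14.9 for mir-106a, 25.5 ± 6.02 for mir-20b and 10.9 ± 3.29 for mir-18b. No neighbours in this order overlapped in these clones: the lowest mir-93 value, 62971, lay above the highest mir-25 value, 53061. In deletion clones mir-93 and mir-25 did overlap, at 39203 to 48685 and 39743 to 45975 CPM.

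**Figure D2:**
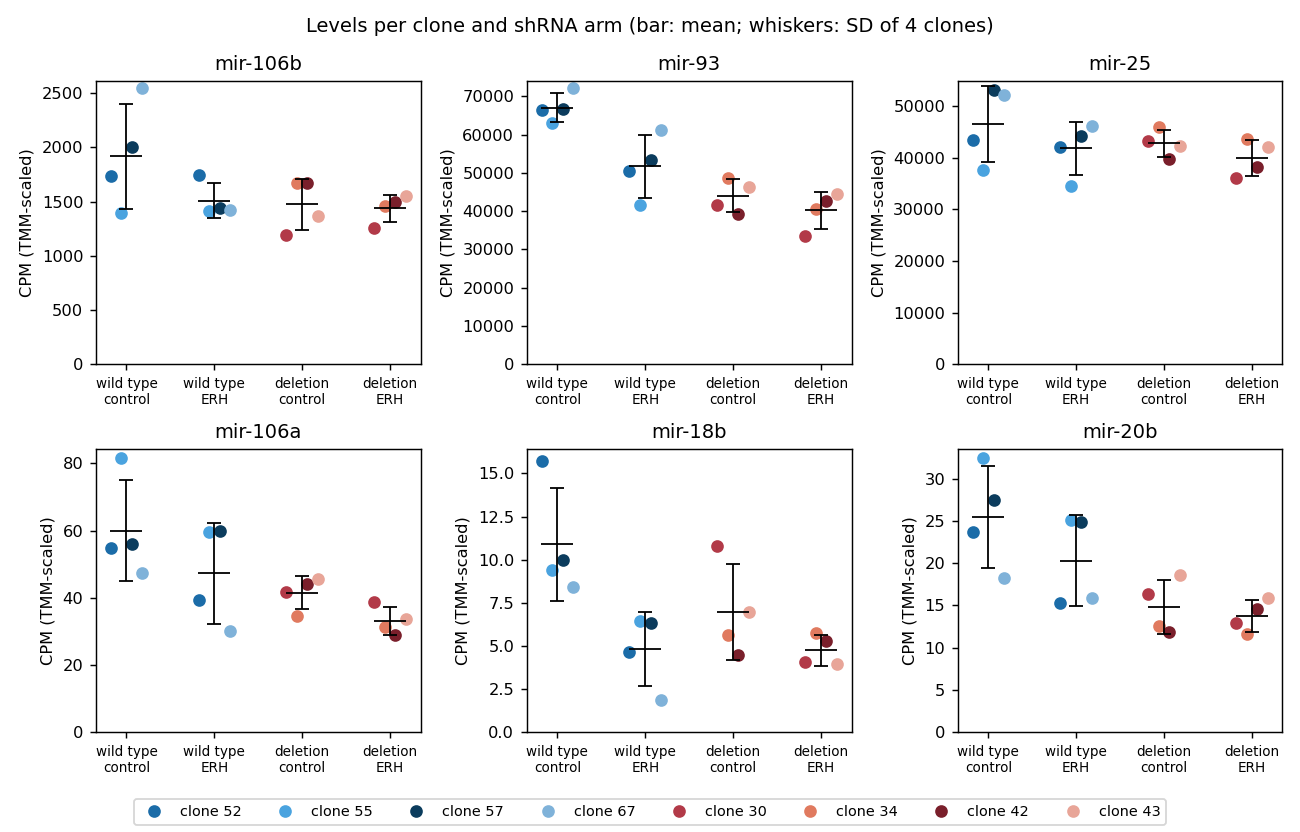
TMM-scaled CPM (y axis, linear from 0) of the 6 tested rows, 1 panel each, for the clones of each genotype and shRNA arm (x axis), with the bar at the mean and whiskers of 1 SD over 4 clones. In mir-93 the wild-type control clones, at 62971 to 72035, lie above the deletion control clones, at 39203 to 48685, while in mir-25 the genotypes overlap.

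Deletion of the ERH binding site was compared under control shRNAs, 4 clones against 4, which asks what the missing segment of DGCR8 does on its own. mir-93, which shares its seed with the miR-17 family, was lower in the deletion clones. It stood at 66347, 62971, 66709 and 72035 CPM in wild-type clones 52, 55, 57 and 67, and at 41701, 48685, 39203 and 46401 in deletion clones 30, 34, 42 and 43. The genotypes did not overlap, and its log2 fold change was -0.59 with an SE of 0.14 (edgeR quasi-likelihood test, Benjamini-Hochberg adjusted p = 0.012), which is 0.664 of the wild-type level. In such bulk RNA, fewer cells with a miRNA and less of it per cell cannot be told apart.

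Its neighbours in the MCM7 intron did not pass the test, and their values, negative under TMM scaling, were positive under spike-in scaling (mir-25 0.39, mir-106b 0.10) and total-count scaling (0.32 and 0.07). mir-25, of the miR-92 seed family, stood at 43525, 37680, 53061 and 52103 CPM in the wild-type and at 43170, 45975, 39743 and 42320 in the deletion clones, with every deletion clone inside the wild-type range. Its log2 fold change was -0.11 (SE 0.15, edgeR adjusted p = 0.621), and the interval of the difference ran from -0.42 to 0.21 (95%, from the SE). mir-106b, the first hairpin of the transcript, stood at 1734, 1395, 2000 and 2543 in the wild-type and at 1195, 1671, 1667 and 1363 in the deletion clones. These ranges overlapped, with a log2 fold change of -0.36 (SE 0.21, edgeR adjusted p = 0.218).

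The 3 X-linked rows tested all had negative values, and none passed with edgeR on the clone sums, while mir-20b passed with DESeq2 (-0.84, adjusted p = 0.0366). mir-106a stood at 54.9, 81.7, 56.0 and 47.4 CPM in the wild-type and at 41.6, 34.5, 44.0 and 45.6 in the deletion clones, which did not overlap, with 47.4 and 45.6 as the nearest values. Its log2 fold change was -0.52 (SE 0.28, edgeR adjusted p = 0.185). mir-20b stood at 23.7, 32.5, 27.4 and 18.2 against 16.4, 12.6, 11.8 and 18.6 (log2 fold change -0.76, SE 0.32, edgeR adjusted p = 0.091). mir-18b stood at 15.7, 9.40, 10.01 and 8.42 against 10.8, 5.61, 4.47 and 6.97 (-0.65, SE 0.38, edgeR adjusted p = 0.218). In both rows the genotypes overlapped. Under spike-in and total-count scaling the values were nearer to 0, at -0.13 and -0.10 for mir-106a, -0.32 and -0.34 for mir-20b and -0.10 and -0.25 for mir-18b. With each library as its own sample, which counts a clone more than once, mir-20b, mir-106a and mir-106b passed as well (edgeR adjusted p = 0.0173, 0.0285 and 0.0478).

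In all, edgeR called 1 of the 6 rows tested lower and none higher, and DESeq2 called 2 lower, mir-93 and mir-20b. With edgeR, 7.09% of the 536 rows tested over the whole table were lower, 18.8% higher and 25.9% changed in either direction. Without overlap of the genotypes, 2 of the 6 rows were lower and 0 higher, against 10.3% and 19% of all rows. The median log2 fold change of the 6 rows was -0.56 and that of all rows tested -0.03. In the MIR17HG list, 1 of 6 rows passed, mir-92a, with -0.65 (SE 0.20, edgeR adjusted p = 0.0325). That call ended without clone 30, 34, 42, 57 or 67 (adjusted p 0.0571 to 0.14) and under spike-in (-0.20) and total-count scaling (-0.22). It also ended with a mean of at least 100 counts (-0.50), GC correction (-0.57) and control shRNA 2 alone (-0.40), and held in 7 of 17 alternatives. The other 5, mir-17, mir-18a, mir-19a, mir-20a and mir-19b, had values of -0.53 to -0.32, of which mir-19a and mir-19b were positive under spike-in (0.08 and 0.11) and total-count scaling. Of the relatives that share a seed but lie outside the 3 clusters, mir-32 and mir-92b were tested and did not pass, and mir-367 was at 0 in all 32 libraries.

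The mir-93 call kept its side of the threshold when any 1 clone was left out (log2 fold change -0.67 to -0.51, edgeR adjusted p 0.0156 to 0.0436). It ended under spike-in scaling (-0.12, adjusted p = 0.868), total-count scaling (-0.17, adjusted p = 0.488), correction for hairpin GC content (-0.34, adjusted p = 0.148) and with no filter (-0.58, adjusted p = 0.0531). Spike-in and total-count scaling moved the median of all rows from -0.03 to 0.42 and 0.39, and relative to that median mir-93 stood at -0.56 under TMM, -0.54 under spike-in and -0.56 under total-count scaling. The mir-25 values relative to the median were -0.07, -0.02 and -0.07. A change of scaling shifts all rows by nearly the same amount. Positions relative to the median are therefore nearly fixed in advance and are no test of the mir-93 call.

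All 7 of the miRNAs listed as markers of other cell types were in the table, and mir-206, of muscle, was at 0 in 23 libraries. With control shRNAs, medians in wild-type and deletion clones were 333 and 402 CPM for mir-122, of liver. For the muscle miRNAs they were 17.7 and 28.9 (mir-1) and 10.5 and 11.2 (mir-133a). For mir-124, of neurons, the deletion median was the lower one, at 11.4 and 9.18. Over the libraries with control shRNAs, mir-142, a miRNA of blood cells, ran from 145 to 296 CPM in wild-type and from 148 to 3155 in deletion clones, with medians of 183 and 567. mir-223, of myeloid cells, ran from 8.69 to 27.6 and from 10.3 to 395, with medians of 12.6 and 54.7. Clone 30 was highest in both, clone 34 lay above the wild-type range in both libraries (mir-142 694 and 1009 CPM, mir-223 66.5 and 119), and clone 42 reached 440 and 43.0. Without clone 30 the deletion medians were 356 and 32.7, still above the wild-type ones. Clone 43, at 148 and 165 CPM of mir-142 and 10.3 of mir-223 in both libraries, lay within the wild-type range, and its mir-93 level of 46401 CPM was below all 4 wild-type clones. Summed over the 7 markers, libraries with control shRNAs held 335 to 855 CPM in wild-type and 278 to 3905 in deletion clones, and those with ERH shRNAs 240 to 910 and 408 to 1636. Without clone 30, mir-93 was still lower in deletion clones (log2 fold change -0.51, edgeR adjusted p = 0.0351). The part of the marker shift in the mir-93 difference was not tested.

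**Figure D3:**
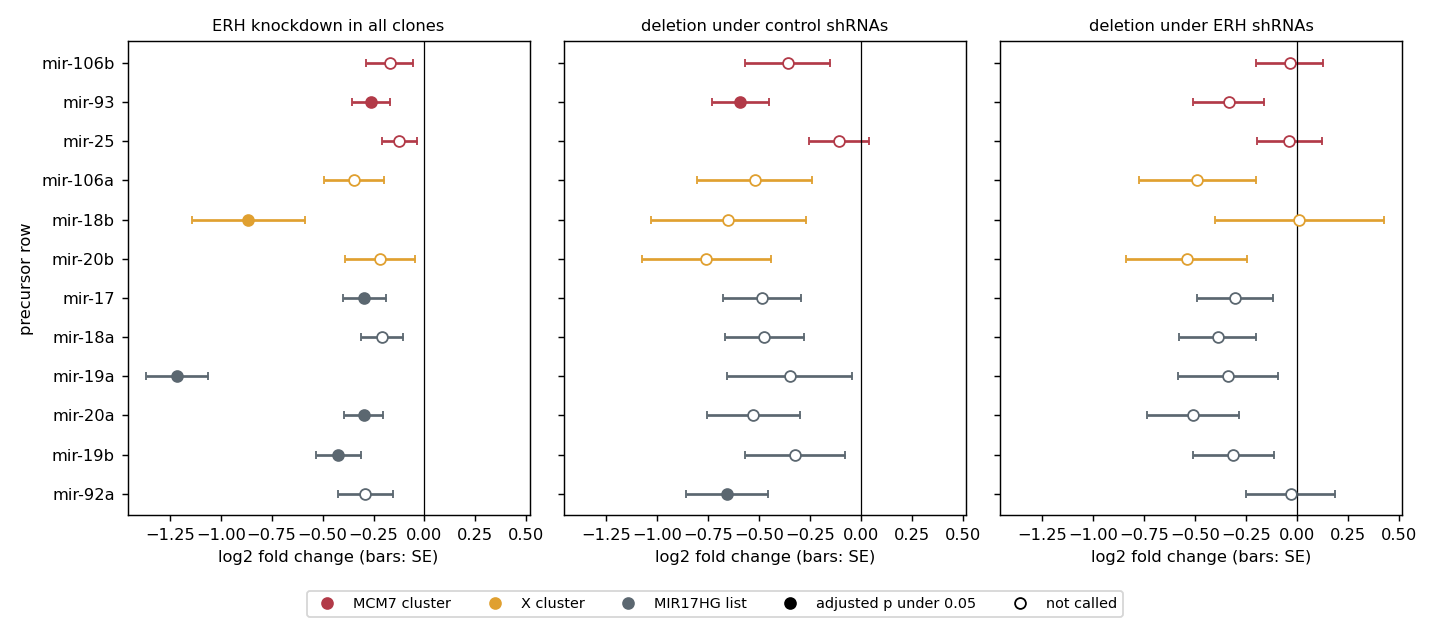
Log2 fold changes with SE bars (x axis) from the edgeR fits for the 6 tested rows and the 6 rows of the MIR17HG list (y axis), with filled points for adjusted p under 0.05, in 3 panels for the knockdown, the deletion under control shRNAs and the deletion under ERH shRNAs. mir-93 is filled in the first and second panels, mir-18b in the first, and no point in the third.

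mir-93 and mir-25 are cut from the same transcript. Because both are counted in the same libraries, their count ratio within a clone needs no scaling. Under control shRNAs mir-25 had 0.656, 0.598, 0.795 and 0.723 counts for each mir-93 count in wild-type clones 52, 55, 57 and 67, and 1.04, 0.944, 1.01 and 0.912 in deletion clones 30, 34, 42 and 43. Every deletion clone lay above every wild-type clone. On the log2 scale the means were -0.54 ± 0.18 (SD, n = 4) and -0.04 ± 0.09 (SD, n = 4), 0.50 higher in the deletion clones (two-sided exact permutation p = 0.0286). That p is the smallest that 4 clones against 4 allow, and adjusted over the 12 ratio tests it was 0.343, so the difference does not pass after adjustment.

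The single libraries did not overlap either, but they are the parts of these sums and no independent support. Their nearest values were -0.185 in wild-type and -0.175 in deletion clones, against -0.33 and -0.13 in the sums. With control shRNAs, the log2 ratio of mir-25 to mir-93 ran from -0.82 to -0.19 over the 8 wild-type libraries and from -0.17 to 0.14 over the 8 deletion libraries. The difference was 0.44 with control shRNA 1 alone and 0.54 with control shRNA 2 alone, and 0.43 to 0.57 when any 1 clone was left out. Under control shRNAs the ratio of mir-106b to mir-93 did not separate the genotypes, with log2 means of -5.16 ± 0.29 (SD, n = 4) and -4.91 ± 0.26 (SD, n = 4; exact permutation p = 0.286). In the X cluster, mir-18b to mir-106a differed by -0.17 (exact permutation p = 0.657) and mir-20b to mir-106a by -0.26 (exact permutation p = 0.143). With ERH shRNAs, mir-106b to mir-93 narrowly separated the genotypes, at -5.42 to -4.85 in wild-type and -4.84 to -4.73 in deletion clones. That difference was not tested.

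**Figure D4:**
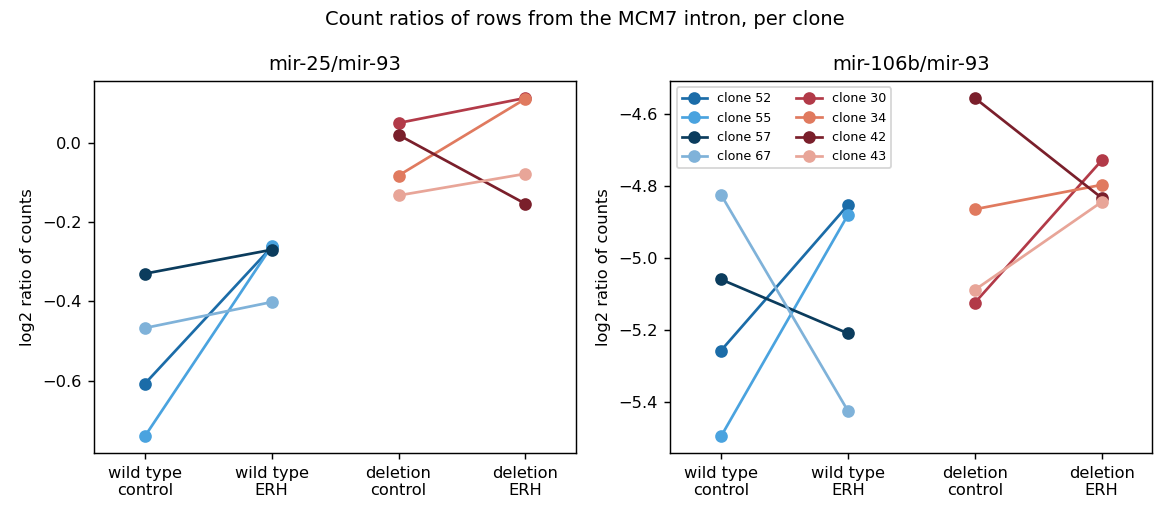
Log2 count ratio of mir-25 to mir-93 (left) and of mir-106b to mir-93 (right) on the y axis for each clone, with lines joining the control and ERH shRNA values of a clone (x axis). On the left the wild-type control clones lie between -0.74 and -0.33 and the deletion control clones between -0.13 and 0.05, and on the right the genotypes overlap under control shRNAs.

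ERH knockdown was tested within clones, in all 8 together. Under TMM scaling mir-93 and mir-18b were lower after knockdown and the other 4 tested rows had negative values that did not pass, but under spike-in scaling all but mir-18b had positive values. Under total-count scaling mir-93, mir-25, mir-106b and mir-20b did. mir-93 stood at 50551, 41497, 53430 and 61104 CPM with ERH shRNAs in wild-type clones 52, 55, 57 and 67, each below the clone's control value. In deletion clones 30, 34, 42 and 43 it stood at 33404, 40468, 42561 and 44438, below the control value in all but clone 42. Its log2 fold change was -0.26 (SE 0.09, edgeR adjusted p = 0.0322; lower in 7 of 8 clones), which is 0.835 of the control level.

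mir-18b, whose seed is that of miR-18a, had the larger fold change on far fewer counts. It stood at 4.63, 6.42, 6.33 and 1.86 CPM with ERH shRNAs in wild-type clones 52, 55, 57 and 67, where the control values had been 15.7, 9.40, 10.01 and 8.42. In deletion clones 30, 34, 42 and 43 it stood at 4.07, 5.75, 5.27 and 3.94, against control values of 10.8, 5.61, 4.47 and 6.97. All 4 wild-type clones and deletion clones 30 and 43 were lower, and clones 34 and 42 slightly higher. The log2 fold change was -0.86 (SE 0.28, edgeR adjusted p = 0.0192; lower in 6 of 8 clones), with as few as 11 counts behind a clone's value.

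Among the other rows, mir-25 had lower values with ERH shRNAs in 8 of 8 clones, yet by little: 42123, 34628, 44315 and 46251 CPM in the wild-type and 36127, 43703, 38253 and 42093 in the deletion clones (log2 fold change -0.12, SE 0.09, edgeR adjusted p = 0.268). mir-106a had lower values in 7 of 8 clones (-0.35, SE 0.15, edgeR adjusted p = 0.0709), at 39.4, 59.7, 59.9 and 30.0 in the wild-type and 38.7, 31.3, 28.99 and 33.8 in the deletion clones. mir-20b had lower values in 7 of 8 as well, at 15.3, 25.2, 24.8 and 15.9 in the wild-type and 12.9, 11.7, 14.6 and 15.9 in the deletion clones (-0.22, SE 0.17, edgeR adjusted p = 0.34). mir-106b was lower in 4 of 8 clones, at 1748, 1408, 1444 and 1423 in the wild-type and 1259, 1456, 1493 and 1547 in the deletion clones (-0.17, SE 0.12, edgeR adjusted p = 0.267).

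So edgeR called 2 of 6 rows lower and none higher, and DESeq2 called 3 lower, mir-106a beside them. With edgeR, 16.5% of the 667 rows tested over the whole table were lower, 20.1% higher and 36.6% changed in either direction. Lower in all 8 clones was 1 of 6 rows, against 9.6% of all rows. The median log2 fold change was -0.24 over the 6 rows and 0.06 over all rows tested. In the MIR17HG list, 4 of 6 rows were lower under TMM scaling, of which mir-19a alone passed under spike-in (-0.77) and total-count scaling (-0.94), and mir-17, mir-20a and mir-19b had spike-in values of 0.17, 0.16 and 0.03. mir-19a had the largest value, -1.21 (SE 0.15, edgeR adjusted p = 1.87e-06), with mean levels of 23928 ± 9572 CPM (SD, n = 4) and 10102 ± 2317 (SD, n = 4) in wild-type clones with control and ERH shRNAs. mir-19b (-0.42), mir-20a (-0.30) and mir-17 (-0.30) also passed, while mir-18a (-0.21) and mir-92a (-0.29) did not. The call of mir-17 ended without clone 30, 42, 43, 52, 55 or 57, that of mir-20a without clone 30, 43, 52 or 55, and that of mir-19b without clone 55 (adjusted p 0.0518 to 0.127 over these fits). The rows mir-19b and mir-92a pool reads from chromosome 13 and from hairpins of the X cluster, which carries copies of both. mir-32 (-0.20) and mir-92b (-0.06) did not pass, except with correction for GC content (-0.30 and -0.34).

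Both calls were lost under several settings. Under spike-in scaling the mir-93 value was 0.20 (edgeR adjusted p = 0.407) and under total-count scaling 0.01 (adjusted p = 0.899). The median of all rows stood at 0.52 and 0.33 there. Relative to that median mir-93 was at -0.32 and -0.31, against -0.32 under TMM, a position that scaling leaves nearly fixed and that is no test of the call. The mir-18b value was -0.42 under spike-in and -0.59 under total-count scaling, and neither passed. The mir-93 call also ended when clone 30, 43, 52, 55 or 57 was left out (adjusted p 0.0579 to 0.171), and that of mir-18b without clone 30 (adjusted p = 0.0559) or clone 52 (adjusted p = 0.071). Over the alternatives run, the mir-93 call held in 7 of 20 and the mir-18b call in 11 of 19. Correction for GC content ended both (mir-93 -0.11, adjusted p = 0.43; mir-18b -0.67, adjusted p = 0.0663). mir-106a passed without clone 57 (-0.42, adjusted p = 0.0376), with DESeq2 (-0.40, adjusted p = 0.0151) and with each library as its own sample (-0.30, adjusted p = 0.0243).

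By genotype, the knockdown passed for 1 of 6 rows in wild-type clones, mir-18b, with a log2 fold change of -1.21 (SE 0.40, edgeR adjusted p = 0.0256; lower in 4 of 4 clones). There 10.4% of 613 rows were lower, 20.9% higher and 31.3% changed in either direction. mir-93 had -0.36 (SE 0.15, edgeR adjusted p = 0.0807; lower in 4 of 4 clones), and passed with DESeq2 (-0.50, adjusted p = 0.0126). Its value was 0.25 under spike-in scaling, -0.02 under total-count scaling and -0.14 with GC correction, none of which passed. The mir-18b call ended without clone 52 (-0.95, adjusted p = 0.105) or clone 67 (-0.95, adjusted p = 0.125). In deletion clones 0 of 6 rows passed with edgeR, at an unadjusted p under 0.05 or with DESeq2, where 6% of 633 rows were lower, 4.27% higher and 10.3% changed in either direction. mir-93 had -0.14 (SE 0.11, edgeR adjusted p = 0.409) and mir-18b -0.50 (SE 0.35, edgeR adjusted p = 0.376) in those clones.

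The difference of the knockdown effect between genotypes was tested itself, and 0 of 6 rows passed with edgeR, at an unadjusted p under 0.05 or with DESeq2 (0% of 667 rows passed with edgeR). The fitted differences, deletion minus wild-type, were 0.30 for mir-93 (SE 0.15, adjusted p = 0.307, interval -0.03 to 0.62), 0.34 for mir-106b (SE 0.21, adjusted p = 0.399) and 0.79 for mir-18b (SE 0.52, adjusted p = 0.447, interval -0.32 to 1.89). mir-25, mir-106a and mir-20b had 0.09, 0.09 and 0.27. The intervals, under TMM scaling, take in both no difference and differences as large as the knockdown effect in wild-type clones. The signs depended on the scaling. Under spike-in scaling all but mir-18b (0.41) were negative, with -0.10 for mir-93 and -0.06 for mir-106b. mir-25, mir-106a and mir-20b had -0.30, -0.30 and -0.13 there. Under total-count scaling mir-25 (-0.13) and mir-106a (-0.14) were negative and the others positive.

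Under ERH shRNAs the genotypes were compared again. Of 6 rows 0 passed with edgeR, at an unadjusted p under 0.05 or with DESeq2, where 0% of 569 rows passed with edgeR. The mean mir-93 level was 51645 ± 8100 CPM (SD, n = 4) for the wild-type and 40218 ± 4823 for the deletion, and the genotypes overlapped, with a log2 fold change of -0.34 (SE 0.17, edgeR adjusted p = 0.386). mir-20b had -0.54 and mir-106a -0.49, and both overlapped. None of the 6 rows was without overlap of the genotypes, where 2.64% of all rows were lower and 8.26% higher without overlap. mir-25, mir-106b and mir-18b had -0.04, -0.04 and 0.01.

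For the ratio of mir-25 to mir-93, the mean within-clone difference between ERH and control shRNAs was 0.14 ± 0.20 (SD, n = 8) on the log2 scale, with 7 of 8 clones upward. It did not pass (two-sided exact sign-flip permutation p = 0.0938, adjusted p = 0.411 over the 12 ratio tests). In wild-type clones it went from 0.656, 0.598, 0.795 and 0.723 counts of mir-25 for each count of mir-93 to 0.833, 0.834, 0.829 and 0.757. In deletion clones it went from 1.04, 0.944, 1.01 and 0.912 to 1.08, 1.08, 0.899 and 0.947. The wild-type values with ERH shRNAs overlapped the wild-type control values, and all 4 lay below the lowest deletion control value, which was not tested. With ERH shRNAs in both genotypes, every wild-type clone (0.757 to 0.834) lay below every deletion clone (0.899 to 1.08). That difference was not tested either. The within-clone difference was 0.24 in wild-type and 0.03 in deletion clones (difference -0.20, exact permutation p = 0.171).

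Other within-cluster ratios did not pass. The mean within-clone difference of mir-18b to mir-106a was -0.54 ± 0.83 (SD, n = 8) on the log2 scale (exact sign-flip permutation p = 0.109), with 2 of 8 clones upward. For mir-20b to mir-106a it was 0.13 ± 0.39 (SD, n = 8; exact sign-flip permutation p = 0.422). For mir-106b to mir-93 it was 0.09 ± 0.41 (SD, n = 8; exact sign-flip permutation p = 0.555).

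As a background, control shRNA 2 was compared with control shRNA 1 within clones. Of 6 rows 0 passed with edgeR, at an unadjusted p under 0.05 or with DESeq2, and 0% of 571 rows passed with edgeR. The log2 differences were -0.01 for mir-93, -0.04 for mir-25, -0.01 for mir-106b, -0.13 for mir-106a, -0.33 for mir-18b (SE 0.33) and 0.01 for mir-20b. Under TMM scaling the mir-93 difference is far smaller than its knockdown value of -0.26, while that of mir-18b stands beside a knockdown value of -0.86. This contrast depends on the scaling. Under spike-in scaling the mir-93 difference between control shRNAs was 0.13 and its knockdown value 0.20. Under total-count scaling these were 0.03 and 0.01.

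Rows that varied like these ones were looked up by Pearson's r of log2 CPM over the 16 sums, among 362 rows with a mean of at least 10 CPM, as a description. All pairs share clones, libraries and scaling. mir-93 was most like mir-30a (r = 0.92) and mir-1306 (0.89), and mir-106b most like mir-339 (0.83) and mir-23b (0.82). mir-25 had no close match, with mir-1268a (0.70) and mir-1268b (0.69) the nearest. mir-106a was most like mir-20a (0.89) and mir-17 (0.88), and mir-20b most like mir-20a (0.95) and mir-455 (0.87). Among the rows themselves, r was 0.64 for mir-106b with mir-93, 0.66 for mir-93 with mir-25, 0.86 for mir-106a with mir-20b, and 0.62 for mir-93 with mir-20b.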

How the data were processed

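Small RNA libraries were made with the QIAGEN QIAseq miRNA kit from total RNA with spike-in RNAs, per the labels' protocols. The authors deposited whole-number read counts per miRNA precursor, 1 column per library, unnormalized. SAMtools is named in the submitters' processing notes. The aligner, annotation, build, trimming and use of molecular identifiers are not given in the sources used here. Each row pools both strands of a hairpin and its copies at several loci. The count table had 0 columns without a sample.

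Spike-in rows were kept out of library sizes. For each clone and arm, the counts of the 2 libraries were added (16 sums). The rows and lists studied, and the tests, were chosen with earlier results of these data known. All rows were tested with edgeR 4.0.16 (glmQLFit, glmQLFTest) in R 4.3.3, limma 3.58.1, after filterByExpr and TMM scaling, with Benjamini-Hochberg adjustment over all rows tested and a threshold of 0.05. Knockdown, interaction and the comparison of control shRNAs had the clone as a block, since the labels give each clone all 4 vectors. Deviations of a clone's sums from their group means had r of 0.33 to 0.59 in 8 clones. Log2 CPM used a prior count of 2. Ratios, with at least 10 counts in every sum, were tested by exact permutation: 256 sign flips, smallest p 0.00781, or 70 splits, smallest p 0.0286. Fits were tested on simulated data.

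The text names all 7 rows, the 6 of the MIR17HG list (mir-17, mir-18a, mir-19a, mir-20a, mir-19b, mir-92a), the seed relatives mir-32, mir-92b, mir-367, mir-519d and mir-526b (the last pair matched no row of that name), and the 2 most alike rows of each with at least 10 CPM. Markers of other cell types were mir-142, mir-223, mir-1, mir-133a, mir-206, mir-122 and mir-124. RefSeq hairpins matched 1239 of 1513 rows, and GENCODE 29 hairpins, used for GC content, 653 of the 667 rows in the knockdown fit. Pairs of libraries within a genotype and vector, 48 in all, gave chi-square values of at least 75.4 per degree of freedom, so none of these was treated as a copy. Alternatives were DESeq2 1.42.0, other scalings and filters, single libraries as samples, GC correction, no block, single vectors and leaving out each clone.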

Additional observations from a re-analysis of the deposited data

Results flagged for a closer look

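One value stood apart from its group. The log2 CPM of mir-106b in wild-type clone 52 with ERH shRNAs was 10.77, while the other 3 wild-type clones lay between 10.46 and 10.50. The gap to the nearest clone was 0.885 of the group's range, above Dixon's critical value of 0.829 for 4 samples. With 24 groups of 4 clones looked at (6 rows in 4 groups), chance marks about 1 in 20 groups.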

How the results depend on the processing

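Of 1098 recomputed values of rows and ratios, 887 kept call and sign, 116 that did not pass either way changed sign, 69 lost their call, 21 gained one and 5 reversed. The reversed ones were for the knockdown in all clones: under spike-in scaling mir-93 was 0.20, mir-17 0.17, mir-20a 0.16 and mir-19b 0.029, and under total-count scaling mir-93 was 0.013. In all clones, the knockdown passed for 2 of 6 rows as reported. It passed for 3 with DESeq2 and with each library as its own sample, for 0 under spike-in scaling, total-count scaling, a mean of at least 100 counts, GC correction, no replicate block, control shRNA 2 alone and ERH shRNA 2 alone, for 1 with no filter, and for 0 to 2 leaving out 1 clone. In wild-type clones, with 1 as reported, it passed for 2 with DESeq2, with each library as its own sample and with ERH shRNA 1 alone. There it passed for 0 under spike-in scaling, total-count scaling, a mean of at least 100 counts, GC correction, no replicate block, control shRNA 1 alone, control shRNA 2 alone and ERH shRNA 2 alone, and for 0 to 1 leaving out 1 clone. Deletion under control shRNAs, with 1 as reported, passed for 2 with DESeq2 (mir-20b gained), 4 with each library as its own sample (mir-20b, mir-106a and mir-106b gained), and 0 under spike-in scaling, total-count scaling, no filter and GC correction, and stayed at 1 leaving out any 1 clone. The other counts, at 0, stayed at 0 under the alternatives run. The cause was not tested.

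Over all rows, the split of higher to lower calls was 134 to 110 for the knockdown, against 233 to 22 under spike-in scaling, 210 to 36 under total-count scaling and 13 to 24 without the block. For the deletion it was 101 to 38, against 134 to 0, 154 to 4 and, with GC correction, 62 to 28. No paired analysis was possible between genotypes because their clones differ. Depth limits mir-363, and mir-18b with as few as 11 counts in a sum.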
